A study of Mus musculus with 4 samples.

Results

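Muscle ubiquitin ligases linked to atrophy were followed in tibialis anterior (TA), the shin muscle, of C57BL/6 mice at postnatal day 21. The set was a list of 10 gene names (Fbxo32, Trim63, Trim54, Trim55, Fbxo30, Fbxo31, Fbxo40, Nedd4, Cblb and Stub1) out of 32868 gene names in the tables, and all 10 were found, with 1 row each, and passed the filter on low values. The Nf1-KO group had the genotype Nf1flox/flox/Myf5+ (2 libraries) and the Het group Nf1flox/+/Myf5+ (2 libraries), so every animal carried the Myf5 allele and at least 1 floxed copy of Nf1, and no library was without them. In crosses of this kind Myf5+ denotes a Cre driver active in muscle precursors, which the labels do not spell out; cells outside that lineage would keep Nf1 and still add to the RNA of whole muscle. Whether the libraries of a group came from separate animals is not stated, so p-values measure the spread between these libraries, which may be technical.

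Ubiquitin ligases (E3 enzymes) choose the proteins that are tagged with ubiquitin and sent to the proteasome. Muscle that wastes after denervation, fasting or glucocorticoid treatment raises Fbxo32 (atrogin-1) and Trim63 (MuRF1), whose genes are targets of the FoxO transcription factors, and the pair is widely used as a transcript marker of atrophy. Fbxo32, Fbxo30, Fbxo31 and Fbxo40 are F-box proteins, the substrate-binding subunits of SCF complexes built on Skp1, Cul1 and Rbx1. Trim63, Trim55 and Trim54 (MuRF1, MuRF2 and MuRF3) are RING ligases that sit on the sarcomere and on microtubules. Nedd4 is a HECT ligase, Cblb a RING ligase that acts on signalling proteins, and Stub1 (CHIP) a U-box ligase that works with heat shock proteins.

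Promoter windows (250 bases before to 50 bases after the start; RefSeq, GRCm38.p6) were at hand for 8 of the 10 genes, in 10 entries, and those of 4 are printed because they hold the motifs known from atrophy genes or, in the other pair, lack them. Fbxo32 and Trim55 had no entry, so their promoters were not searched. Capitals mark matches on either strand to 5 motifs, and neighbouring capitals can belong to different or overlapping motifs. The FoxO motif was searched as GTAAACA and the core bound by steroid receptors was searched as AGAACA. For the E-box of myogenic factors the letters were CAGCTG, while the TATA box was read as TATAAA, and the GC box bound by Sp proteins was read as GGGCGG. Trim63 lies at chr4:134314870-134315169 (plus strand), Trim54 at chr5:31116362-31116661 (plus strand), Fbxo31 at chr8:121578757-121579056 (minus strand) and Fbxo30 at chr10:11281337-11281636 (plus strand).
Trim63: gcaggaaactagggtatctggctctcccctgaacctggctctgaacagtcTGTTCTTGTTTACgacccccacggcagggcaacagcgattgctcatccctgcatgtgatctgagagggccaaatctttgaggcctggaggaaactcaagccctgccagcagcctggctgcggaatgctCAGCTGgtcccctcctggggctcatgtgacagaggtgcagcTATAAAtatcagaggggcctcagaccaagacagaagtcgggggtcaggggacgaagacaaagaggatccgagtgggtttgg
Trim54: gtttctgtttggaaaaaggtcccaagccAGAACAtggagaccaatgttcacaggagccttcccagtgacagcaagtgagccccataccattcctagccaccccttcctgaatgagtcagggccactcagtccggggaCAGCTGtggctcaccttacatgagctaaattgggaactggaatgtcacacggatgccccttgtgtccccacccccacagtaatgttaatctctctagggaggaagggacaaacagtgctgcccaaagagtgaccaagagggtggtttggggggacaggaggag
Fbxo31: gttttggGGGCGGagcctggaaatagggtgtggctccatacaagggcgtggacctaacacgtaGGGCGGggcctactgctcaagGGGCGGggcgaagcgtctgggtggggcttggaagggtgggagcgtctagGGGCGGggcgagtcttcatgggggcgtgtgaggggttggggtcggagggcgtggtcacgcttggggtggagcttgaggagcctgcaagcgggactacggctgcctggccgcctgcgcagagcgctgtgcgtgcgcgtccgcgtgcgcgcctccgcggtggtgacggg
Fbxo30: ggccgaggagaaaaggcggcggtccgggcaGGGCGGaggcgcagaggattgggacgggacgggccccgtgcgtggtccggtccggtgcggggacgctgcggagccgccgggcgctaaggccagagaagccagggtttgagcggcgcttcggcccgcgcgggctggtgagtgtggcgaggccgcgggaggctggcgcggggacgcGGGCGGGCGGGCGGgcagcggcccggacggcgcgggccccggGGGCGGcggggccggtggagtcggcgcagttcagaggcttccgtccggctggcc

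The Trim63 window held a steroid receptor core from position -200 and, directly next to it, a FoxO motif from position -194, both on the strand opposite to the gene, with an E-box from -72 and a TATA box from -31. It was the only one of the 10 entries, none of them of Fbxo32 or Trim55, with the FoxO motif. That motif occurs in 3.65% of the 32851 promoter windows of this length. Trim63 was also the only entry with a TATA box (13.6% of all windows). The steroid receptor core was also in the windows of Trim54, of the second Fbxo40 entry and of the second Nedd4 entry (19% of all windows). An E-box was in these, in Trim63 and in the first Fbxo40 entry, which had 2 (16.3% of all windows). GC boxes were counted 5 times in Fbxo30 and Stub1, 4 times in Fbxo31, 3 times in Cblb and 2 times in the first Nedd4 entry (35.7% of all windows held at least 1). The GC content of the windows was 51.3% to 57% for Trim63, Trim54 and Fbxo40, 61.3% to 79.7% for Fbxo30, Fbxo31, Cblb, Stub1 and the first Nedd4 entry, and 46.7% for the second Nedd4 entry, against a median of 52.7% over all windows. These matches describe letters in the window and do not show binding. The RefSeq starts can differ from those of GENCODE M21, which gives the gene positions below. The Trim54 window ends at 31116661, before the GENCODE start at 31116712. Those of Fbxo30, Cblb, Stub1 and the second entries of Fbxo40 and Nedd4 lie inside the gene as GENCODE places it.

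The targeted gene was checked first. Nf1 was 1.09 and 1.01 RPKM (reads per kilobase of gene, scaled to the reads of the library) in Het and 0.89 and 0.85 RPKM in Nf1-KO, a log2 fold change of -0.18 (standard error 0.057; limma adjusted p 0.0408). The call was lost with any 1 of the 4 libraries left out (limma adjusted p 0.0577 to 0.176) and with values as deposited (0.0944). At this low level the pseudocount of 1 shrinks the change: with 0.1 the log2 fold change was -0.33 (limma adjusted p 0.0454), and the authors' deposited table gave -0.38 with an adjusted p of 0.00258. Reads from all exons and all cells enter this value. Libraries of a group lay close together: the coefficient of variation had a median of 2.02% in Het and 1.96% in Nf1-KO over 4826 genes with a mean of 5 RPKM or more. The 10 genes that mark skeletal muscle fibres summed to 54228 and 54445 RPKM in Het and to 47681 and 47999 RPKM in Nf1-KO, so the markers of the labelled tissue were abundant; of these, 2 were higher and 8 lower past the threshold in Nf1-KO. The summed level of 6 Schwann cell genes was 15.1 and 15.5 RPKM in Het and 33.4 and 34.9 RPKM in Nf1-KO (6 of 6 higher), and that of 6 fibroblast genes was 90.3 and 92.5 RPKM against 142 and 143 RPKM (6 of 6 higher). The 6 adipocyte genes summed to 8.29 and 9.47 RPKM in Het and 20.02 and 20.6 RPKM in Nf1-KO, and 2 of the 3 that could be tested were higher. In whole muscle, fewer cells of a type and less RNA per cell cannot be told apart, and the part of these cells in the ligase values was not tested.

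In Het, Trim54 was the highest at 191 ± 0.516 RPKM (mean ± SD, n = 2 here and below) and ranked 204th of all gene names. Fbxo40 (64 ± 0.566 RPKM), Nedd4 (59.6 ± 0.134), Trim63 (54.6 ± 0.12), Fbxo32 (43.9 ± 0.523), Fbxo31 (33.8 ± 0.658), Trim55 (21.2 ± 0.219) and Stub1 (13.9 ± 0.148) came next. Fbxo30 (2.61 ± 0.134 RPKM) and Cblb (1.55 ± 0.0354 RPKM) were the lowest. The libraries of neighbours in this order did not overlap in either group. In Nf1-KO the order was the same except that Nedd4 stood above Fbxo40, and the nearest neighbours were Trim63 and Fbxo32, with means 1.04-fold apart. Between genes these levels depend on the length the authors divided by. Read from the authors' deposited mean normalized count, that length (47.52 reads per RPKM and kilobase, the median over 8480 genes) came to 2.65 kb for Fbxo40 and 2.93 kb for Trim63, where the longest annotated transcripts have 5137 and 1886 bases (GENCODE M21). Per kilobase of the longest transcript, Fbxo40 held 1546 normalized reads (mean of the 4 libraries). It then came sixth, below Trim63 (4213), Fbxo32 (2378) and Fbxo31 (1986), whereas by RPKM it stood above these genes in both groups. The comparison between groups of the same gene does not use the length.

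**Figure D1:**
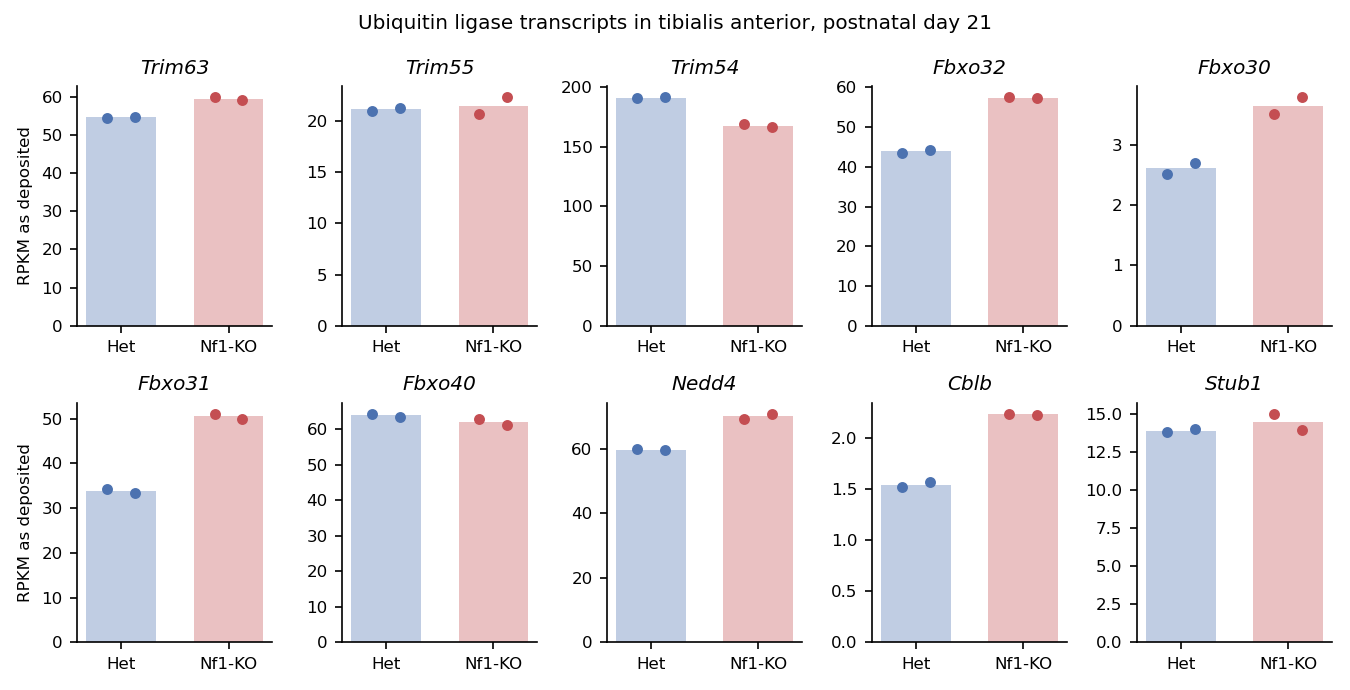
RPKM as deposited (y axis, from 0) of the 10 ligases in Het and Nf1-KO; points are the 2 libraries of a group and bars their mean. Fbxo31 moves from 33.8 to 50.6 and Fbxo32 from 43.9 to 57.4, Trim54 falls from 191 to 168, and the points of Trim55 and Stub1 overlap between the groups.

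The MuRF genes did not move together: Trim54 fell, while Trim63 and Trim55 did not pass the threshold. Trim54 (MuRF3, which binds microtubules and the Z-disc; ENSMUSG00000062077, GRCm38 chromosome 5, 31116712 to 31137630; positions here and below are those of GENCODE M21) was 190.41 and 191.14 RPKM in Het and 168.99 and 166.14 RPKM in Nf1-KO. Both Nf1-KO libraries lay below both Het libraries, and on scaled values the mean fell by 17.7%. The log2 fold change was -0.28 (standard error 0.020; limma adjusted p 0.000082). An exon of Trim54 overlaps one of Gm15469 on the opposite strand, and strand use in the counting is not given in the sources used here.

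Trim63 (MuRF1, which tags thick filament proteins; ENSMUSG00000028834, chromosome 4, 134315120 to 134329629) was 54.51 and 54.68 RPKM in Het and 59.8 and 59.03 RPKM in Nf1-KO. As deposited, both Nf1-KO libraries were higher, by 8.83% in the mean. The tested genes as a whole were also higher as deposited, by a median log2 fold change of 0.07, and after scaling Trim63 was 1.93% higher. Its log2 fold change was then 0.03, with a 95% interval from -0.03 to 0.08 (limma adjusted p 0.369). Without scaling it was 0.12 and past the threshold (limma adjusted p 0.00555), so whether Trim63 is called depends on the scaling. The authors' deposited table gave 0.02 with an adjusted p of 0.81.

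Trim55 (MuRF2, which binds titin and microtubules; ENSMUSG00000060913, chromosome 3, 19644474 to 19692421) was 21.01 and 21.32 RPKM in Het and 20.72 and 22.31 RPKM in Nf1-KO. As deposited, the Nf1-KO libraries lay on either side of the Het libraries; after scaling, both were lower. Its log2 fold change was -0.07 (95% interval -0.16 to 0.03, limma adjusted p 0.199) and turned to 0.02 without scaling.

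Of the 4 F-box genes, 3 rose and Fbxo40 fell. Fbxo32 (atrogin-1; ENSMUSG00000022358, chromosome 15, 58175879 to 58214932) was 43.53 and 44.27 RPKM in Het and 57.5 and 57.27 RPKM in Nf1-KO. The gap between the groups was many times the gap between libraries of a group. On scaled values Fbxo32 was 1.22-fold higher, a log2 fold change of 0.29 (standard error 0.024; limma adjusted p 0.000168). An exon of Fbxo32 overlaps one of Gm15943 on the opposite strand.

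Fbxo31 (an F-box protein known to target cyclin D1; ENSMUSG00000052934, chromosome 8, 121549440 to 121578806) had the largest increase of the 10. It was 34.25 and 33.32 RPKM in Het and 51.08 and 50.03 RPKM in Nf1-KO. On scaled values this was a 1.40-fold difference, or 0.48 on the log2 scale (standard error 0.028; limma adjusted p 0.000036). The authors' deposited table gave 0.48 as well.

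Fbxo30 (MUSA1, a ligase of muscle loss held down by BMP signalling; ENSMUSG00000047648, chromosome 10, 11281330 to 11298052) was low, at 2.51 and 2.70 RPKM in Het and 3.50 and 3.78 RPKM in Nf1-KO. It rose 1.31-fold on scaled values, or 0.29 on the log2 scale (standard error 0.057; limma adjusted p 0.00654). The pseudocount of 1 makes a change at this level look smaller. With a pseudocount of 0.1 the log2 fold change was 0.38, and the authors' deposited table gave 0.37.

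Fbxo40, a muscle-restricted F-box protein that tags the insulin receptor substrate Irs1 (ENSMUSG00000047746, chromosome 16, 36963460 to 36990467), was 64.36 and 63.56 RPKM in Het and 62.85 and 61.34 RPKM in Nf1-KO. Both Nf1-KO libraries were lower. The mean as deposited fell by 2.92%, and after scaling it fell by 9.07%. The log2 fold change was -0.14 (standard error 0.025; limma adjusted p 0.00487). Without scaling it was -0.04 and did not pass (limma adjusted p 0.185). The authors' deposited table gave -0.15 with an adjusted p of 0.000136.

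Nedd4 and Cblb rose and Stub1 did not pass the threshold. Nedd4 (a HECT ligase that also rises in denervated muscle; ENSMUSG00000032216, chromosome 9, 72662346 to 72749852) was 59.72 and 59.53 RPKM in Het and 69.14 and 70.71 RPKM in Nf1-KO. Both Nf1-KO libraries were higher, and after scaling the mean differed by 9.83%. Its log2 fold change was 0.13 (standard error 0.023; limma adjusted p 0.00379), and 0.23 without scaling.

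Cblb (a RING ligase that tags Irs1 in unloaded muscle and restrains T cell activation; ENSMUSG00000022637, chromosome 16, 52031225 to 52208048) was the least abundant of the set, at 1.52 and 1.57 RPKM in Het and 2.24 and 2.23 RPKM in Nf1-KO. On scaled values it rose 1.35-fold, or 0.28 on the log2 scale (standard error 0.052; limma adjusted p 0.00496). The authors' deposited table, which has no pseudocount of this kind, gave 0.42. Cblb is also a gene of leukocytes, and the summed level of the immune cell markers was 8.71 and 9.08 RPKM in Het and 28.0 and 27.9 RPKM in Nf1-KO. Of the 8 marker names, 3 could be tested and all 3 were higher; Adgre1, also under its older name Emr1, was listed at 0 in the 4 libraries. The part of such cells in the Cblb value was not tested.

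Stub1 (CHIP; ENSMUSG00000039615, chromosome 17, 25830505 to 25833404) was 13.80 and 14.01 RPKM in Het and 15.00 and 13.92 RPKM in Nf1-KO. The groups overlapped. The log2 fold change was -0.04 with a 95% interval from -0.14 to 0.07 (limma adjusted p 0.519), and it turned to 0.05 without scaling and to 0.02 without the second Nf1-KO library. Exons of Stub1 overlap those of Jmjd8 on the opposite strand and of Mir3082.

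Counted together, 7 of the 10 ligases passed the threshold, 5 higher and 2 lower in Nf1-KO. Over all 10690 genes tested, 50.3% passed, 24.9% higher and 25.4% lower, so the count by itself sets the ligases little apart from other genes of this muscle. The median log2 fold change of the 10 was 0.08, against 0.00 over all tested genes. On scaled values no ligase changed by over 0.5 on the log2 scale. Of the 10690 tested genes, 1042 both passed this size and were called. Fbxo31 reached 0.57 as deposited and 0.501 without the second Nf1-KO library. Scaled values of the groups did not overlap for 9 of the 10, where 76.3% of all tested genes did not overlap. With values as deposited, 6 were higher and 1 lower; over all tested genes the share of higher genes among those called moved from 49.5% to 66.6%. The authors' deposited table called 7 of the 10 (5 higher, 2 lower), the same genes as here, at a background of 31.6% of its 13985 genes.

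**Figure D2:**
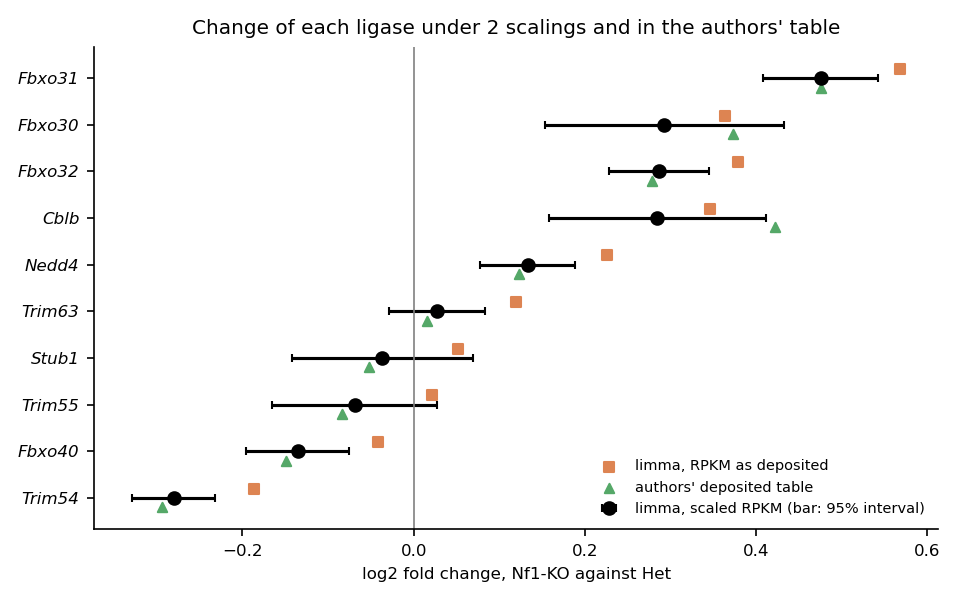
Log2 fold change of Nf1-KO against Het (x axis) for each ligase: limma on scaled RPKM with its 95% interval (black), limma on RPKM as deposited (squares) and the authors' deposited table (triangles). From Fbxo31 (0.48) to Trim54 (-0.28) the squares lie to the right of the black points and take Trim55 and Stub1 across 0, and the triangles of Cblb (0.42) and Fbxo30 (0.37) lie further right still.

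The depth behind these values differed. The authors' deposited mean normalized count was 24208 reads for Nedd4, 16590 for Fbxo32 and 13060 for Trim54, between 7941 and 8653 for Fbxo40, Trim63 and Fbxo31, and 1810, 1125, 895 and 753 for Trim55, Stub1, Cblb and Fbxo30. Counting error alone (the square root of the count) is then 0.643% for Nedd4 and 3.65% for Fbxo30, so differences of a few percent were not detectable for the 4 lowest genes.

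Ratios within a library do not depend on scaling between libraries. Trim63 to Fbxo32, the classical atrophy pair, was 1.25 and 1.24 in Het and 1.04 and 1.03 in Nf1-KO. Both Nf1-KO libraries lay below both Het libraries, so Fbxo32 gained on Trim63 whatever the scaling. Trim63 to Trim54 was 0.286 in both Het libraries and 0.354 and 0.355 in Nf1-KO, and Trim55 to Trim54 was 0.110 and 0.112 against 0.123 and 0.134. Trim63 to Trim55 was 2.59 and 2.56 in Het and 2.89 and 2.65 in Nf1-KO, the smallest of the 4 differences on the log2 scale (0.10, against -0.26 for Trim63 to Fbxo32, 0.31 for Trim63 to Trim54 and 0.21 for Trim55 to Trim54). The Trim63 to Trim55 difference was 0.04 without the first and 0.16 without the second Nf1-KO library. Exact two-sided permutation tests gave p = 0.333 for each of the 4 ratios (0.333 after adjustment over them), which is the smallest p that 2 libraries against 2 allow. For Trim63 to Trim55 and Trim55 to Trim54 the Nf1-KO libraries differed more from each other than from the nearest Het library; for the other 2 ratios the gap between groups was wider than the spread within either group.

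**Figure D3:**
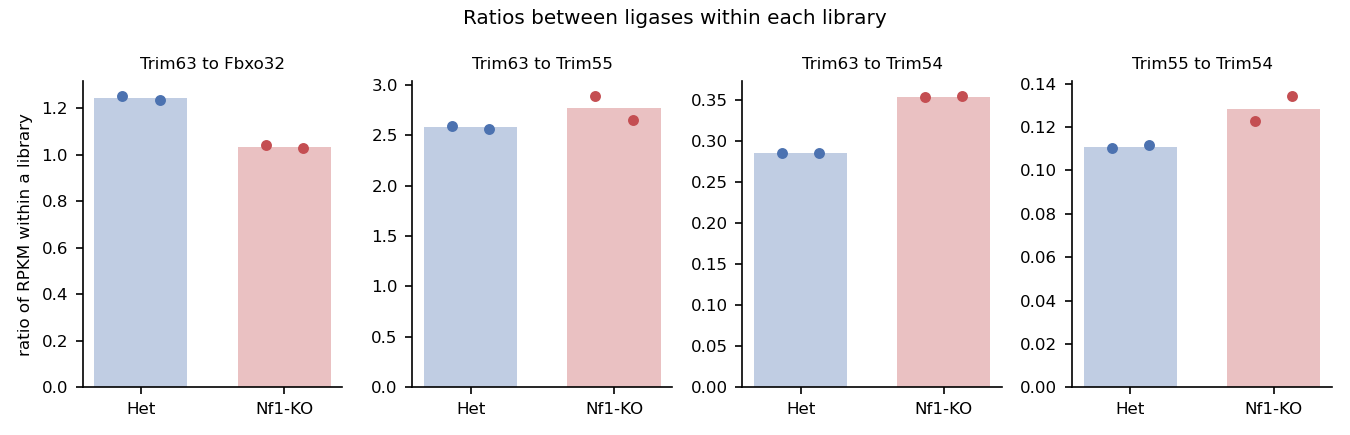
Ratio of RPKM between 2 ligases within each library (y axis, from 0) in Het and Nf1-KO; points are libraries and bars their mean. Trim63 to Fbxo32 falls from a mean of 1.24 to 1.04, and the 3 MuRF ratios are higher in both Nf1-KO libraries.

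The 10 ligases together held 486 RPKM in each Het library, against 511 and 507 RPKM in Nf1-KO. Trim54 made up 39.2% and 39.3% of this sum in Het and 33.1% and 32.8% in Nf1-KO. Fbxo31 moved from 7.05% and 6.85% to at least 9.87% in both Nf1-KO libraries, and Fbxo32 from 8.96% and 9.11% to 11.3% in both Nf1-KO libraries. Trim63 kept between 11.2% and 11.7% in the 4 libraries.

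**Figure D4:**
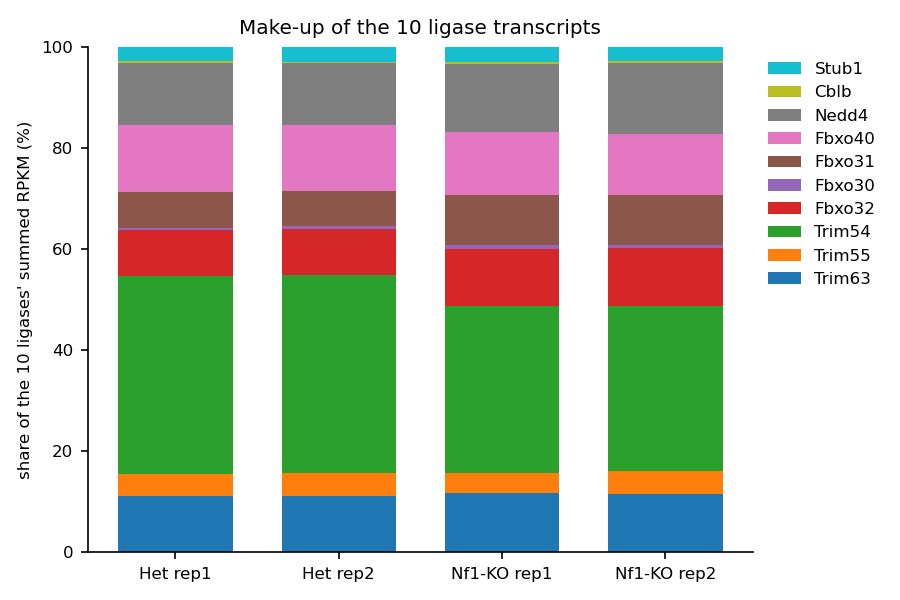
Share of each ligase in the summed RPKM of the 10 (y axis, percent) in each library. Trim54 takes 39.2% and 39.3% in Het and 33.1% and 32.8% in Nf1-KO, while the segments of Fbxo31 and Fbxo32 widen.

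The genes around the ligases were described from lists that were chosen with earlier results of these data known. Of the SCF and cullin core, 6 of 10 passed, 3 higher and 3 lower (4 and 1 as deposited), a share of 60% against 50.3% of all tested genes. Skp1a, the adaptor that holds F-box proteins, was 84.7 ± 1.17 RPKM in Het and 95.4 ± 0.453 in Nf1-KO, a log2 fold change of 0.08 (limma adjusted p 0.0267) that did not pass when any 1 library was left out (0.0565 to 0.143), with no filter or without a variance trend. The scaffold Cul1 had -0.07 (limma adjusted p 0.0657; 0.02 as deposited) and the RING subunit Rbx1 0.03 (0.415), which passed as deposited (0.13, limma adjusted p 0.018). Cul3, the scaffold of another class of cullin ligases, fell from 106 ± 3.14 to 85.5 ± 0.113 RPKM (log2 fold change -0.40). Cul5 fell by 0.15 on the log2 scale and Cul4a rose by 0.14. Cul5 did not pass as deposited (-0.06), with no filter, without a variance trend, or without the first Het library or either Nf1-KO library (limma adjusted p 0.0938 to 0.106 over these 3).

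E1 and E2 enzymes, which activate ubiquitin and hand it to the ligases, were mostly lower. Of 15 listed, 12 could be tested, and 8 fell and 1 rose (6 and 2 as deposited), with a median log2 fold change of -0.21. The share called was 75%, against 50.3% of all tested genes (24.9% higher and 25.4% lower). Ube2r2, an E2 that works with SCF complexes, fell from 52 ± 1.24 to 41.6 ± 0.198 RPKM (log2 fold change -0.41, limma adjusted p 0.000059). Ube2e1 and Uba6 fell by 0.39 and 0.32 on the log2 scale. For the low gene Uba6 the log2 fold change was -0.62 with a pseudocount of 0.1. An exon of Ube2e1 overlaps one of Nkiras1. Ube2b, the E2 known to rise in wasting muscle, was the 1 that rose, from 159 to 183 RPKM (log2 fold change 0.11). It did not pass with no filter, without a variance trend or without the first Het library, and it was named after its value was seen.

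Other ligases described in muscle were lower more often than higher: 12 of the 26 tested fell and 5 rose (9 and 8 as deposited). The share called was 65.4%, against 50.3% of all tested genes, and the median log2 fold change was -0.12. Park2 (parkin, the ligase of mitophagy) fell from 9.89 ± 0.424 to 5.35 ± 0.205 RPKM (log2 fold change -0.86). Ubr4, an N-recognin, fell by 0.56, and an exon of it overlaps one of Emc1. Fbxo21, the F-box protein called SMART that is known from denervation atrophy, rose from 3.26 ± 0.297 to 5.58 ± 0.283 RPKM (log2 fold change 0.55, limma adjusted p 0.000684). Among ubiquitin genes and deubiquitinases, 4 of 14 tested rose and 5 fell (6 and 3 as deposited), a share of 64.3% called. Their median log2 fold change of -0.03 turned to 0.05 as deposited. It was 0.02 without the first and -0.10 without the second Nf1-KO library. Usp2 rose from 43.6 ± 0.12 to 64.6 ± 0.191 RPKM (log2 fold change 0.46) and shares exonic positions with 2 genes on the opposite strand. Uchl1, a deubiquitinase abundant in neurons, rose by 0.63 from 0.87 RPKM (by 1.02 with a pseudocount of 0.1), and Usp25 fell by 0.44 on the log2 scale.

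Regulators known to act on Fbxo32 or Trim63 were higher more often than lower: 11 of 19 tested rose and 3 fell (13 and 2 as deposited). The share called was 73.7%, against 50.3% of all tested genes, and the median log2 fold change was 0.15. The list was not split into factors that raise and factors that restrain the ligase genes, so its count and median give no direction of control. Akt2 and Ppargc1a, named after their values were seen, were also among the 11 that rose (log2 fold changes 0.15 and 0.37). Foxo1 was 4.30 and 4.15 RPKM in Het and 6.87 and 7.74 RPKM in Nf1-KO, and Foxo3 3.15 and 3.06 against 5.19 and 4.99 RPKM. These FoxO genes were both higher in both Nf1-KO libraries, with log2 fold changes of 0.59 and 0.49 (limma adjusted p 0.00038 and 0.000315). Foxo4, named after its value was seen, was far more abundant and changed less. It was 50.5 ± 1.01 RPKM in Het and 57.2 ± 0.559 in Nf1-KO (log2 fold change 0.08, limma adjusted p 0.0381). Klf15, a glucocorticoid-induced factor that acts with the receptor on both ligase genes, rose from 15.6 ± 0.24 to 32.5 ± 0.672 RPKM (log2 fold change 0.92). Myog, which activates both genes after denervation, rose from 1.08 ± 0.219 to 4.86 ± 0.467 RPKM (log2 fold change 1.44), and Cebpb rose by 0.65. Transcript levels of these factors do not give their activity: FoxO proteins are controlled by phosphorylation, which was not measured. The glucocorticoid receptor gene Nr3c1 fell by 0.14 (with a log2 fold change of -0.05 as deposited), Smad3 by 0.53 and Mstn (myostatin) by 0.63 on the log2 scale; these 3 are all that fell, and they were named after their values were seen.

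Among substrates and partners of the ligases, 6 of 25 rose and 12 fell (9 and 11 as deposited). The share called was 72%, against 50.3% of all tested genes. The median log2 fold change of -0.08 turned to 0.01 as deposited. Mybpc2 and Myl1, thick filament genes of fast fibres whose proteins or close relatives MuRF1 tags, fell from 1203 ± 3.95 to 555 ± 4.19 RPKM and from 5453 ± 20.3 to 2986 ± 17.2 RPKM (log2 fold changes -1.21 and -0.96). Mybpc1, of the same family as Mybpc2, went the other way, from 512 ± 5.18 to 876 ± 6.45 RPKM (log2 fold change 0.68). Tcap also rose (0.52) and Mylpf fell (-0.42). These last 3 were named after their values were seen. Irs1, whose protein is tagged by Fbxo40 and Cblb, was 8.50 and 8.19 RPKM in Het and 5.17 and 5.04 RPKM in Nf1-KO, a log2 fold change of -0.70 (limma adjusted p 0.0000428). Eif3f, a translation factor tagged by atrogin-1, rose from 80 ± 0.827 to 93.3 ± 1.8 RPKM (log2 fold change 0.13, limma adjusted p 0.00619). Myod1, another atrogin-1 target, had 8.70 and 8.44 RPKM in Het and 10.58 and 9.59 RPKM in Nf1-KO (log2 fold change 0.13, limma adjusted p 0.0922); it passed as deposited (0.0169) and without the second Nf1-KO library (0.0241). Exons of Foxo1, Cebpb, Uchl1, Cul1, Cul5, Irs1 and Mybpc2 also overlap a gene on the opposite strand. These are transcripts, and ubiquitin tagging acts on the proteins.

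**Figure D5:**
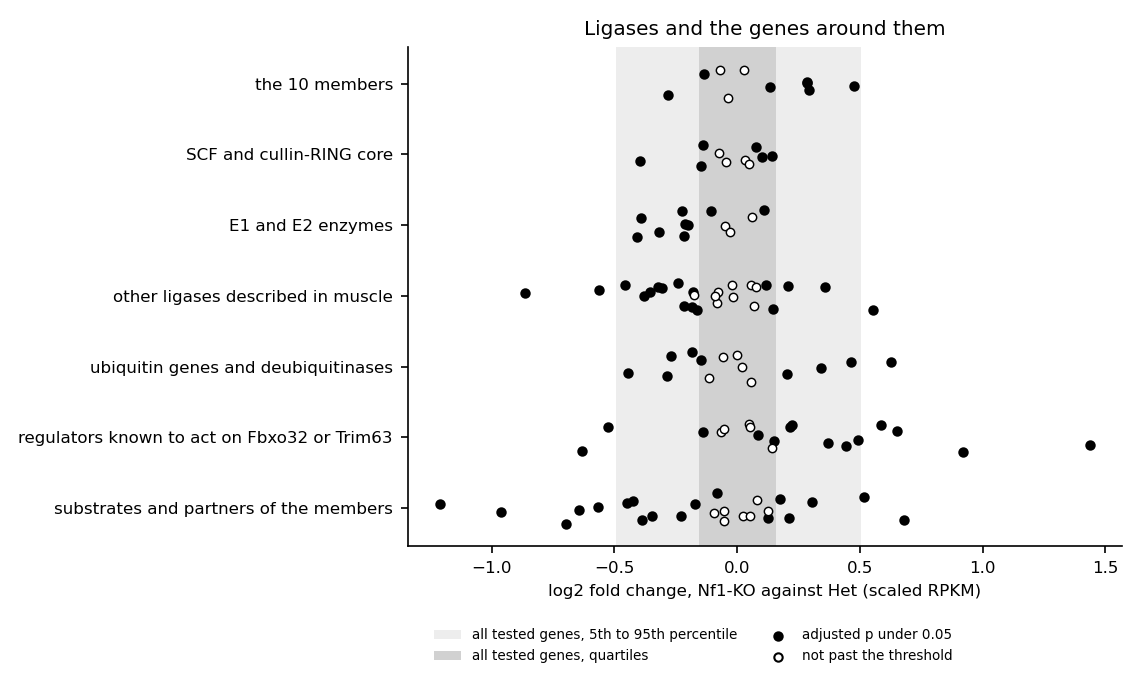
Log2 fold change of Nf1-KO against Het on scaled RPKM (x axis) for the 10 ligases and 6 lists of genes around them; filled points passed an adjusted p of 0.05, grey bands give the quartiles (-0.16 to 0.16) and the 5th to 95th percentiles (-0.49 to 0.51) of all tested genes. The 10 ligases stay within the outer band, while Myog (1.44) and Mybpc2 (-1.21) lie far outside it.

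The genes with the pattern most like Fbxo32 over the 4 libraries, by Euclidean distance of centred log2 values among 4826 other genes of at least 5 RPKM, were Mecr, Kbtbd13 and Anxa11 (distances 0.00901, 0.0101 and 0.0157). For Trim63 they were Rab35, Chchd10 and Insr (0.00339, 0.00829 and 0.00965).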

How the data were processed

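RNA of 4 tibialis anterior muscle samples (2 Het, 2 Nf1-KO) was sequenced from total RNA with a TruSeq version 2 kit, per the labels' protocols. Reads were aligned with STAR 2.4.2a to mm9 and compared with DESeq2, per the submitters' processing notes; the counting program, annotation, strand setting and depth are not given in the sources used here. The authors deposited 1 value per gene and library for 34682 rows, read here as RPKM from the values. The authors' deposited comparison table gives, per the file headers, a signal (mean of counts divided by size factors), a log2 fold change, a test score and p-values.

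Rows with a number for a name (33) were left out, and of rows marked as further copies (1781) the highest mean was kept per name. Genes reaching 0.5 RPKM in 2 or more libraries entered limma 3.58.1 (R 4.3.3, variance trend, no covariate, two-sided) on log2(RPKM + 1), a scale that understates changes of low genes. The scaling between libraries trimmed 30% of log ratios and 5% of abundances at each end and gave factors of 0.968, 0.967, 1.03 and 1.04. The Benjamini-Hochberg adjustment ran over 10690 genes (threshold 0.05). Means and SD are of RPKM as deposited, fold changes of scaled values. The fit was run on simulated data with few changed genes, each changed by more than any ligase here on scaled values. That run does not test smaller changes or the choice of scaling. Positions and overlaps are of GENCODE M21 (GRCm38), not the authors' build.

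The ligases, lists and motifs were chosen with earlier results of these data known. Named are all 10 ligases, Nf1, 8 fixed genes (Foxo1, Foxo3, Irs1, Eif3f, Myod1, Skp1a, Cul1, Rbx1), per list the 3 largest called changes whose groups did not overlap, and the 3 genes nearest to Fbxo32 and Trim63. Alternatives were other scalings, pseudocounts, filters, moderation, a replicate block, each library left out, summed copies, a threshold of 0.01 and the authors' deposited table.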

Additional observations from a re-analysis of the deposited data

How the results depend on the processing

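Over 15 alternatives each, Fbxo32, Fbxo31, Fbxo30, Nedd4, Cblb and Trim54 kept their direction and their call. With values as deposited, Trim63 passed (0.120), Fbxo40 did not (-0.0421), Trim55 and Stub1 turned to 0.0217 and 0.0519, Cul1 turned to 0.0169, and 1 ligase in place of 2 was called lower. As deposited, the median log2 fold change of all genes was 0.0697. The higher genes in all then numbered 3760 against 2662 and the lower 1883 against 2720. Counts in the lists also moved with values as deposited: 1 lower in the SCF core, 2 higher among E1 and E2 enzymes, 8 higher among other ligases and 3 lower among deubiquitinases. Without a variance trend, 1 of the SCF core was higher and 0 of the E1 and E2 enzymes were, and 0 were with no filter; the cause was not tested. With single libraries left out, Stub1 ran from -0.0799 to 0.0248, Rbx1 from -0.00452 to 0.0605, the SCF core from 1 to 2 higher and 1 to 3 lower, E1 and E2 enzymes from 0 to 1 higher and deubiquitinases from 3 to 5 lower; a group of 1 library is then assumed to vary like the other. With a pseudocount of 1, Trim63 to Trim54 differed by 0.306 on the log2 scale. Replicate numbers gave no sign of pairing (same-numbered deviations correlated at 0.044 over genes); with the replicate block 5 ligases were higher and 2 lower, 2646 and 2707 genes were called, and Nf1 (-0.18, adjusted p 0.0536) was not. The depth limits Fbxo30, Cblb and Stub1 most.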
